A study of Mus musculus with 12 samples.

Results

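Libraries collected 12 days after treatment were compared with libraries collected 6 days after it, to describe how the transcriptome of one mouse kidney cell line went on changing between these days. The members are the 6 libraries labelled day 6 and day 12, 3 a side (replicates A, B and C), of 12 libraries in all, taken by their labelled day. No control library entered the comparison. All libraries carry the genotype Pax2-/-,Pax8fl/fl,Rosa-CreERT2: both Pax2 alleles are disrupted, both Pax8 alleles are flanked by loxP sites, and a tamoxifen-activated Cre recombinase is expressed from the Rosa26 locus. The cells are PT-22, labelled as proximal tubule, grown in DMEM with 3% fetal bovine serum. Both groups received 1 µM 4-hydroxytamoxifen for 2 days at confluence, which activates the recombinase and is meant to remove PAX8. PolyA RNA was sequenced, and the study asked how the transcriptome responds to the loss of this factor. PT-22 is 1 line, each day is 1 collection, and no untreated library of day 6 or day 12 was analysed here. Time since treatment and time in confluent culture therefore cannot be told apart. The labels do not say whether replicates came from separate cultures, so the spread that p-values rest on is that among libraries, which may be technical.

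PAX8 is a paired-box transcription factor that, with its relative PAX2, specifies the nephric lineage and is kept on in mature tubule epithelium. The proximal tubule takes up filtered protein through the receptor megalin and moves water and solutes across tightly joined epithelial cells. When such cells lose their identity or are injured, they are known to lower transporters and junction proteins and to take on actin stress fibres, matrix proteins and inflammatory signals.

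The day 6 libraries held 7482293 to 10027484 counts and the day 12 libraries 8653400 to 9733611. Within a group, pairs of libraries differed by more than sampling noise (chi-square per degree of freedom 2.12 to 4.51 over genes with at least 20 counts), so no library was a copy of another. The first principal component of log2 CPM held 49.6% of the variance and placed the day 6 libraries at -23.32 to -17.98 and the day 12 libraries at 19.51 to 20.79. Of the markers that define the labelled cell type, the transporters Slc34a1 and Slc5a2 were at 0 counts in all 6 libraries and Cubn at 4 to 10 counts, while Lrp2, Cdh16 and Aqp1 were well expressed (Aqp1 at 4863 to 11720 counts). Of the defining markers of other cells, these were at 0 in all 6 libraries: Umod, Kcnj1 and Pvalb of the distal nephron, Aqp2 and Foxi1 of the collecting duct, Cdh5 and Kdr of endothelium, Ptprc and Cd3e of leukocytes, and Pdgfra of fibroblasts. Others were counted: Podxl of podocytes at 550 to 722 counts, the leukocyte markers Csf1r at 66 to 159 and Cd68 at 38 to 91, and Acta2 of smooth muscle at 412 to 2883. Mitochondrially encoded transcripts made up 3.75%, 3.95% and 4.03% of the counts at day 6 and 4.94%, 4.19% and 4.11% at day 12 (exact permutation p = 0.1, two-sided, the smallest that 3 against 3 libraries allow).

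Between day 6 and day 12 smooth muscle genes such as Acta2 and Tagln were among the largest rises, and members that passed were mostly higher in lists of heat shock proteins (23 higher, 0 lower), interferon genes (33 and 4), NF-kB genes (27 and 5) and glycolytic enzymes (21 and 2). Members that passed were mostly lower in lists of sterol synthesis (2 higher, 21 lower), fatty acid synthesis (1 and 12) and mitosis (0 and 32). The same held for the IGF and EGF receptor axis (4 and 17) and immediate early genes (9 and 24). Of 13005 genes with enough counts to test, 3633 passed (27.9%; edgeR quasi-likelihood test, Benjamini-Hochberg adjusted p under 0.05): 1744 were higher (13.4%) and 1889 lower (14.5%) at day 12. Most changes were small. The median absolute log2 difference of the genes that passed was 0.32 (quartiles 0.23 and 0.52), and 2898 of them (79.8%) differed by less than 1.5-fold. At least 2-fold differences were found in 191 higher genes (1.47% of those tested) and 88 lower genes (0.677%). Levels of the 2 groups did not overlap in 5233 genes (40.2%). The median log2 difference over all tested genes was 0.0028, and it was 0.024 with upper-quartile scaling and -0.042 with limma on log2(TPM + 1). Levels below are CPM, the library's counts scaled to a common total after TMM normalization, which do not correct for transcript length. A value after ± is the SD over the 3 libraries of a group for a level and the standard error for a log2 difference. Control and day 2 levels are given as ranges over 3 libraries, for orientation, and were scaled in a separate fit of all 12 libraries. With limma on log2(TPM + 1) of the deposited TPM values, 1618 genes passed and 35.8% of them were higher at day 12, against 48.0% in the edgeR fit. Differences of that fit are named below beside the list counts they move by more than 1.5 times.

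**Figure D1:**
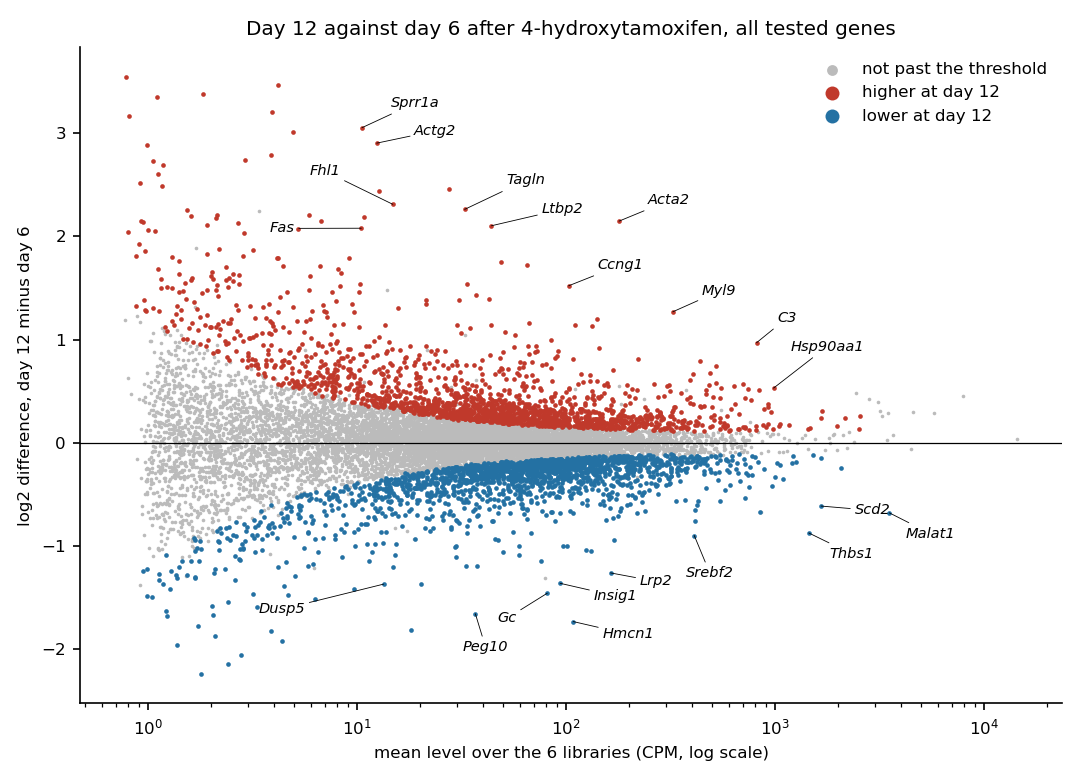
Log2 difference between day 12 and day 6 (vertical axis) against the mean CPM over the 6 libraries (horizontal axis, log scale) for the 13005 tested genes, 1 point per gene. Red and blue points passed the edgeR threshold, grey points did not, and lines lead from gene names to their points: most of the 3633 coloured points lie close to 0.

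The largest rises in genes with a mean of at least 5 CPM belonged to a cornified envelope gene and to smooth muscle actin. Sprr1a, a small proline-rich protein of cornified envelopes (ENSMUSG00000050359, GRCm38 chromosome 3, 92483952 to 92485895), stood at 2.49, 2.10 and 2.14 CPM in the day 6 libraries A, B and C and at 18.3, 19.3 and 19.02 CPM in the day 12 libraries. All day 12 libraries were above all day 6 libraries, and the log2 difference was 3.05 ± 0.17 (edgeR adjusted p = 9.71e-17). Clca3b, of a family of near-identical calcium-activated channel regulator genes and therefore uncertain, went from 2.53 ± 0.863 to 10.97 ± 0.825 CPM (SD, n = 3 each, edgeR adjusted p = 1.48e-10). By difference in CPM, the 6 largest rises were those of the complement gene C3, the chaperones Hspa8 and Hsp90aa1, the actin-binding genes Flna and Dstn and the secreted phosphoprotein Spp1. Spp1, which codes for osteopontin, went from 2319 ± 36.0 to 2770 ± 105 CPM (log2 difference 0.26 ± 0.040, edgeR adjusted p = 5.42e-06). Clu, the secreted chaperone clusterin, went from 606 ± 6.64 to 870.4 ± 22.8 CPM (log2 difference 0.52 ± 0.040, edgeR adjusted p = 6.99e-13). Osteopontin and clusterin are known to be raised in injured tubules.

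Among the largest falls were genes of lipid handling, solute handling and the matrix. Hmcn1, the matrix protein hemicentin (ENSMUSG00000066842, GRCm38 chromosome 1, 150562524 to 150993435), stood at 166, 149 and 184 CPM at day 6 and at 55.1, 40.9 and 53.5 CPM at day 12. The groups were far apart, with a log2 difference of -1.74 ± 0.12 (edgeR adjusted p = 4.3e-05). Gc, the vitamin D binding protein (ENSMUSG00000035540, GRCm38 chromosome 5, 89417522 to 89457898), had 104, 132 and 122 CPM at day 6 and 44.1, 40.1 and 45.4 CPM at day 12, without overlap (log2 difference -1.46 ± 0.079, edgeR adjusted p = 8.71e-13). Peg10, an imprinted gene derived from a retrotransposon, went from 55.9 ± 2.25 to 17.7 ± 1.55 CPM (edgeR adjusted p = 9.49e-18). Its day 12 level lay close to the 17.2 to 22.7 CPM of the control libraries. Chdh, which oxidises choline to betaine, went from 20.8 ± 2.10 to 8.97 ± 0.403 CPM (edgeR adjusted p = 1.96e-09), after 128 to 142 CPM in control libraries. The organic anion transporter Slco4a1 (log2 difference -1.37 ± 0.22), the scaffold Homer2 (-1.51 ± 0.19), the kinase Cdkl1 (-1.42 ± 0.17) and the cornified envelope precursor Scel (-1.29 ± 0.21) were also among the 12 largest falls. In each of these 4 genes the groups did not overlap. That was a condition of the choice, as it was for the largest rises and the largest changes in CPM.

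The large nuclear RNAs fell as well. Malat1, a retained nuclear RNA, stood at 4744, 3738 and 4528 CPM at day 6 and 2687, 2572 and 2856 CPM at day 12, without overlap (log2 difference -0.68 ± 0.10, edgeR adjusted p = 0.00495). It did not pass without day 12 replicate A (edgeR adjusted p = 0.0557). Neat1, the RNA scaffold of paraspeckles, went from 1044 ± 126 to 657 ± 14.3 CPM (log2 difference -0.67 ± 0.084, edgeR adjusted p = 0.000781). Malat1 took 0.433% ± 0.0534 of all counts at day 6 and 0.270% ± 0.0143 at day 12 (SD, n = 3 each). These nuclear RNAs thus moved with the groups compared in every result below, and their part in those results was not tested.

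**Figure D2:**
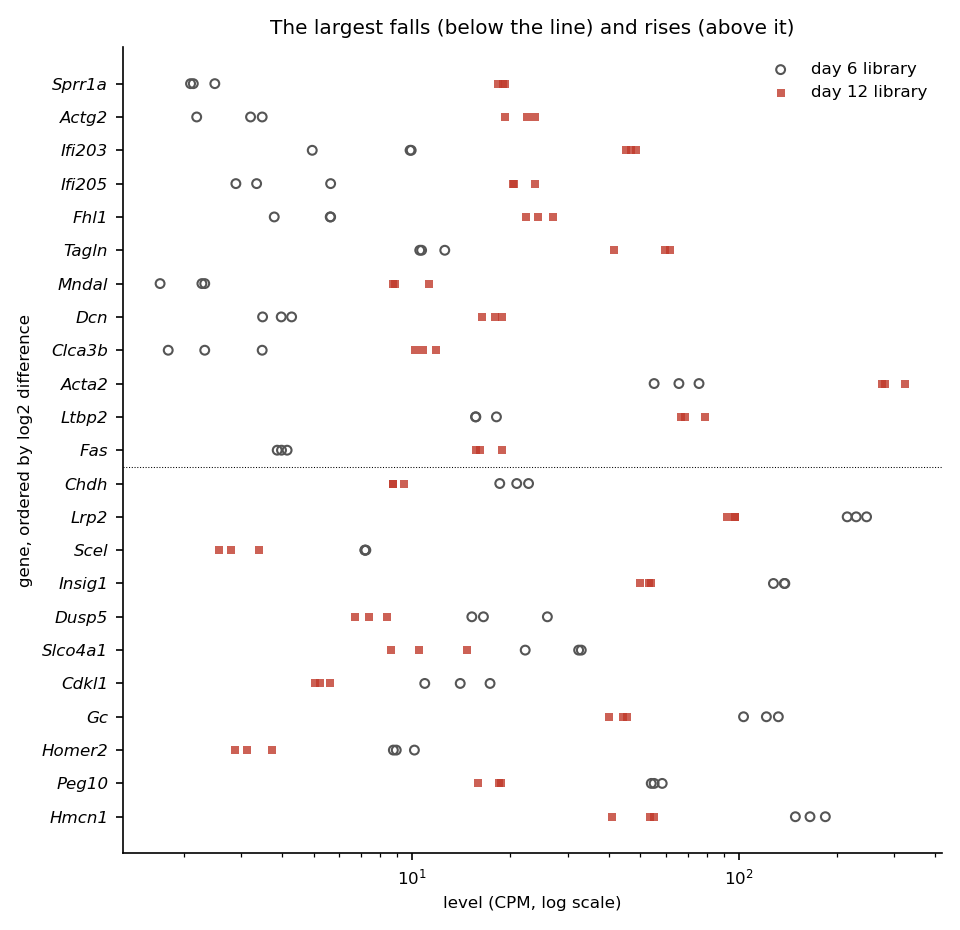
CPM (log scale) in each library for 11 of the 12 genes with the largest falls and the 12 with the largest rises, ordered by log2 difference. Open circles are the 3 day 6 libraries and red squares the 3 day 12 libraries. Only genes without overlap between the groups could be chosen.

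The targeted gene did not pass the test between these days. Pax8 (ENSMUSG00000026976, GRCm38 chromosome 2, 24420560 to 24475599) had 250.3, 249.1 and 269 CPM in the day 6 libraries A, B and C and 252, 231 and 241.4 CPM in the day 12 libraries. The groups overlapped, and the log2 difference was -0.084 ± 0.047 (edgeR adjusted p = 0.184). Control libraries had 221 to 228 CPM of Pax8 and day 2 libraries 367 to 460 CPM, so neither day compared was below control. Gene-level counts take in exons outside the part that Cre removes, so neither the deletion nor the sample labels can be checked from them. Pax2 (ENSMUSG00000004231, GRCm38 chromosome 19, 44756045 to 44837871), which the genotype label gives as disrupted, had 75.1, 75.8 and 86.8 CPM at day 6 and 54.5, 47.2 and 49.6 CPM at day 12. Every day 12 library was below every day 6 library (log2 difference -0.65 ± 0.070, edgeR adjusted p = 3.52e-09), and the day 12 range was near that of the control libraries (42.6 to 53.4 CPM). In the list of 27 tested nephric transcription factors, 6 were higher, 5 lower and 16 did not pass (3 and 5 passed with limma on TPM), with a median log2 difference of -0.03. That is 22.2% higher and 18.5% lower, against 13.4% and 14.5% of all tested genes. Foxc1, a forkhead factor of kidney mesenchyme, had 46.7, 48.1 and 45.1 CPM at day 6 and 29.6, 29.2 and 27.3 CPM at day 12, without overlap (log2 difference -0.70 ± 0.078, edgeR adjusted p = 6.01e-09). The homeobox factor Meis2 went the other way and rose from 20.4 ± 0.310 to 33.8 ± 0.719 CPM (edgeR adjusted p = 6.94e-08). Hnf4a, which directs proximal tubule differentiation, had 4, 1 and 3 counts at day 6 and 22, 21 and 12 counts at day 12. It passed (log2 difference 2.69 ± 0.52, edgeR adjusted p = 0.000111), but from 0.304 ± 0.167 to only 2.05 ± 0.714 CPM, against 9.41 to 15.1 CPM in the control libraries.

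Of the 12 largest rises, 4 were cytoskeletal genes of muscle: Acta2, Actg2, Tagln and Fhl1. Acta2, smooth muscle alpha actin (ENSMUSG00000035783, GRCm38 chromosome 19, 34241090 to 34255590), had 75.7, 65.7 and 55.2 CPM at day 6 and 276, 323 and 280.2 CPM at day 12. The lowest day 12 library was far above the highest day 6 library, a log2 difference of 2.15 ± 0.12 (edgeR adjusted p = 3.36e-05). Myl9, the regulatory light chain of smooth muscle and non-muscle myosin (ENSMUSG00000067818, GRCm38 chromosome 2, 156775420 to 156781658), had 196, 186 and 188 CPM at day 6 and 439, 470.0 and 465 CPM at day 12. Replicates lay close together in both groups, and Myl9 had a log2 difference of 1.27 ± 0.045 (edgeR adjusted p = 3.15e-22). Actg2, smooth muscle gamma actin (ENSMUSG00000059430, GRCm38 chromosome 6, 83512905 to 83536265), had 2.19, 3.21 and 3.48 CPM at day 6 and 19.2, 23.9 and 22.5 CPM at day 12 (log2 difference 2.90 ± 0.17, edgeR adjusted p = 2.17e-16). Actin genes are close in sequence, so reads could be shared between Acta2 and Actg2. Tagln, the actin-bundling protein transgelin (ENSMUSG00000032085, GRCm38 chromosome 9, 45929619 to 45936058), had 10.6, 12.6 and 10.7 CPM at day 6 and 41.5, 61.5 and 59.4 CPM at day 12, with replicate A lowest of the later group (log2 difference 2.26 ± 0.17, edgeR adjusted p = 9.17e-06). Fhl1, a LIM-domain protein of muscle (ENSMUSG00000023092, GRCm38 chromosome X, 56731787 to 56793346), had 3.79, 5.64 and 5.62 CPM at day 6 and 22.4, 24.4 and 27.0 CPM at day 12 (log2 difference 2.31 ± 0.15, edgeR adjusted p = 4.59e-15). The tropomyosin Tpm2 (log2 difference 0.88 ± 0.082) and the actin-severing protein Dstn (0.51 ± 0.041) rose by less. Filamin A, Flna, rose from 1982 ± 55.8 to 2338 ± 125 CPM (edgeR adjusted p = 3.36e-05) but missed the threshold in the limma fit of TPM (adjusted p = 0.136). Levels of the 2 more abundant smooth muscle genes were lower still before day 6: Acta2 had 2.63 to 3.46 CPM in control and 10.8 to 16.1 CPM at day 2, and Myl9 had 36.6 to 40.8 and 57.8 to 76.0 CPM.

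Promoters of contractile genes often hold a CArG box, the site of serum response factor, written as CC, then 6 bases that are A or T, then GG. Both strands were searched in the 250 bases before each start site listed by RefSeq (GRCm38.p6). The box was found in 482 of 32851 promoter windows (1.47%) and in 131 of 9792 tested genes with a window (1.34%). It was found in 6 of 132 genes that were at least 2-fold higher at day 12 (4.55%) and in 2 of 39 that were at least 2-fold lower (5.13%). No test was run on these shares. A match is a description of letters, not a bound site. The stretches with the box in capitals are shown for Myl9 (chr2:156775243-156775372, plus strand) and Fhl1 (chrX:56779521-56779650, plus strand), as examples of genes that rose together, and for Dusp5 (chr19:53529003-53529132, plus strand, with adjoining boxes) and Egr2 (chr10:67537737-67537866, plus strand), as examples of immediate early genes that fell and are described below.
Myl9: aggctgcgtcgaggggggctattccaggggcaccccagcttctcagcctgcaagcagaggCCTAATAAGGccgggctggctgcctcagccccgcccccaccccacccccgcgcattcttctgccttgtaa
Fhl1: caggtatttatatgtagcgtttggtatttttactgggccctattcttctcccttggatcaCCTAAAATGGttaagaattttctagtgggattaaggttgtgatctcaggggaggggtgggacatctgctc
Dusp5: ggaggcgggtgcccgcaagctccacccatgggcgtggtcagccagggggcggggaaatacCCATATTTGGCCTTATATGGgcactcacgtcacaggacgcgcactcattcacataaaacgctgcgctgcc
Egr2: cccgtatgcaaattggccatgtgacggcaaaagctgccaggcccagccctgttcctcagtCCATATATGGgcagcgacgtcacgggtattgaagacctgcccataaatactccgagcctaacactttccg
The box thus stood in promoters of genes that moved in opposite directions.

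Mesenchymal genes as a list, which shares the contractile genes above, had 12 of 26 tested members higher, 3 lower and 11 that did not pass, with a median log2 difference of 0.25 (8 higher and 2 lower with limma on TPM). Shares were 46.2% higher and 11.5% lower, against 13.4% and 14.5% of all tested genes. Twist2, a helix-loop-helix factor of mesenchyme, rose from 2.90 ± 0.582 to 9.03 ± 1.51 CPM (edgeR adjusted p = 8.84e-08). The cell adhesion gene Ncam1 rose from 37.4 ± 1.64 to 61.4 ± 4.46 CPM (edgeR adjusted p = 1.18e-09). Members that fell included the N-cadherin gene Cdh2, from 94.7 ± 2.06 to 72.4 ± 7.10 CPM (edgeR adjusted p = 1.32e-05), and the membrane-bound metalloprotease Mmp14, from 149.8 ± 1.79 to 114 ± 6.45 CPM (edgeR adjusted p = 3.66e-07).

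Markers of fibroblasts and smooth muscle, a list that shares Acta2, Tagln and Cnn1 with the mesenchymal list, were higher where they passed. Of 20 such markers, 11 were tested, and 7 of those were higher, 0 lower and 4 did not pass, with a median log2 difference of 0.91. DESeq2 gave 7 higher and 0 lower, limma on TPM 4 and 0 with a median of 0.44, and no member was lower at an unadjusted edgeR p under 0.05 (0 of 11). Their summed level was 122.7 to 154.1 CPM at day 6 and 412.8 to 490.2 CPM at day 12, where Acta2 made up most of it. Among the defining markers, Pdgfra was at 0 counts in all 6 libraries, Pdgfrb at 4 to 12 counts and Col1a1 at 13 to 34 counts in both groups. Myh11, smooth muscle myosin heavy chain, had 10, 3 and 4 counts at day 6 and 11, 23 and 26 at day 12 (edgeR adjusted p = 0.00213). It is named after its values were seen, and limma on log2(TPM + 1) gave it an adjusted p of 0.0842. The receptor Notch3 of vascular smooth muscle rose from 6.25 ± 1.07 to 11.9 ± 1.32 CPM (edgeR adjusted p = 3.04e-05, limma on TPM adjusted p = 0.204). In bulk RNA, more cells of a type and more RNA per cell cannot be told apart.

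Extracellular matrix genes passed in both directions. Of 54 tested, 21 were higher, 10 lower and 23 did not pass, with a median log2 difference of 0.15 (14 and 4 with limma on TPM). Ltbp2, a microfibril protein of the TGF-beta list related to the binders of latent TGF-beta (ENSMUSG00000002020, GRCm38 chromosome 12, 84783212 to 84876532), had 18.1, 15.7 and 15.7 CPM at day 6 and 66.6, 78.9 and 68.5 CPM at day 12. The groups were far apart (log2 difference 2.10 ± 0.088, edgeR adjusted p = 5.11e-20), from 0.415 to 0.576 CPM in control libraries. Postn, the matricellular protein periostin, had 0.698, 0.553 and 0.803 CPM at day 6 and 9.20, 7.50 and 6.37 CPM at day 12 (log2 difference 3.47 ± 0.29, edgeR adjusted p = 7.66e-12). Dcn, the small proteoglycan decorin, had 3.49, 3.98 and 4.28 CPM at day 6 and 17.9, 18.9 and 16.3 CPM at day 12 (log2 difference 2.18 ± 0.16, edgeR adjusted p = 1.18e-13). Both were near or at 0 in control and day 2 libraries. The fibril-associated collagens Col12a1 (from 41.2 ± 4.65 to 92.0 ± 3.61 CPM, edgeR adjusted p = 1.52e-15) and Col14a1 (from 27.3 ± 1.85 to 60.2 ± 3.99 CPM, edgeR adjusted p = 5.55e-14) rose alike. Thbs1, the matricellular protein thrombospondin 1 (ENSMUSG00000040152, GRCm38 chromosome 2, 118111876 to 118127133), had 1848, 1862 and 1919 CPM at day 6 and 1028, 991 and 1049 CPM at day 12. It was lower in every day 12 library (log2 difference -0.88 ± 0.040, edgeR adjusted p = 3.17e-19) and still above the 304 to 319.8 CPM of control libraries. The basement membrane proteoglycan Agrn went from 439 ± 10.6 to 299 ± 2.51 CPM (edgeR adjusted p = 4.21e-13), and the basement membrane collagens Col4a3, Col4a4, Col4a5 and Col4a6 were among the genes that fell. Those 4 are named after their values were seen; their log2 differences were -0.55, -0.27, -0.38 and -0.43.

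Matrix proteases and their inhibitors had 16 of 34 tested members higher, 7 lower and 11 that did not pass, with a median of 0.15 (7 and 6 with limma on TPM). Mmp10, the metalloprotease stromelysin 2, had 1.79, 2.21 and 2.01 CPM at day 6 and 8.73, 8.51 and 8.12 CPM at day 12 (log2 difference 2.07 ± 0.22, edgeR adjusted p = 1.29e-09), and was at 0 in the control libraries. Adamts5, which cleaves proteoglycans, had 59.5, 61.8 and 64.9 CPM at day 6 and 34.4, 31.5 and 31.1 CPM at day 12, without overlap (log2 difference -0.94 ± 0.075, edgeR adjusted p = 1.48e-12). The urokinase gene Plau went from 66.5 ± 4.12 to 41.4 ± 1.04 CPM (edgeR adjusted p = 1.25e-09).

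Genes of sterol synthesis and uptake were mostly lower where they passed. SREBP2 is the transcription factor that turns on these genes when membrane sterol is low, and INSIG proteins hold it in the endoplasmic reticulum. Of 41 tested genes of cholesterol synthesis and uptake, 21 were lower (51.2%), 2 higher and 18 did not pass, with a median log2 difference of -0.23 (16 lower and 1 higher with limma on TPM). Srebf2, the gene of SREBP2 itself (ENSMUSG00000022463, GRCm38 chromosome 15, 82147181 to 82205379), had 508, 536 and 560.2 CPM at day 6 and 294, 279 and 286 CPM at day 12. The groups were well apart (log2 difference -0.90 ± 0.044, edgeR adjusted p = 1.69e-18). Insig1 (ENSMUSG00000045294, GRCm38 chromosome 5, 28071363 to 28078662) had 138, 128 and 139 CPM at day 6 and 53.3, 53.9 and 50.1 CPM at day 12 (log2 difference -1.36 ± 0.060, edgeR adjusted p = 1.08e-19). Its day 6 range lay close to the 135 to 156 CPM of control libraries and below the 176 to 204 CPM of day 2 libraries. Fdps, which makes farnesyl diphosphate, went from 194 ± 3.84 to 115 ± 4.94 CPM (edgeR adjusted p = 1.82e-14). The early pathway enzyme Hmgcs1, named after its values were seen, fell too, from 152 ± 2.52 to 100.1 ± 1.93 CPM (edgeR adjusted p = 1.22e-11). Insig2, the second INSIG gene, rose from 44.7 ± 4.64 to 62.4 ± 2.06 CPM (edgeR adjusted p = 3.64e-06). The sterol exporter Abca1 also passed (log2 difference 0.14 ± 0.054, edgeR adjusted p = 0.0499), but in only 5 of 15 alternative settings.

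A sterol response element was searched on both strands as TCACNCCAC in the 250 bases before each RefSeq start. It was found in 346 of 32851 windows (1.05%), in 120 of 9792 tested genes with a window (1.23%) and in 1 of 30 tested sterol genes with a window (3.33%). That gene was Hmgcs1, whose stretch (chr13:119690154-119690282, GRCm38.p6, plus strand) is shown with the match in capitals, as the textbook target of the factor.
Hmgcs1: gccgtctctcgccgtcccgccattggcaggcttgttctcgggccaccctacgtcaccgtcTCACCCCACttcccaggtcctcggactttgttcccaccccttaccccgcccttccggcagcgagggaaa
No test was run on these shares.

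Fatty acid synthesis genes were mostly lower where they passed: 12 of 26 tested were lower, 1 higher and 13 did not pass, with a median log2 difference of -0.23 (11 lower and 0 higher with limma on TPM). Scd2, a stearoyl-CoA desaturase whose near copy Scd1 may share reads (ENSMUSG00000025203, GRCm38 chromosome 19, 44293674 to 44306864), had 1948, 2038 and 2037 CPM at day 6 and 1354, 1303 and 1275 CPM at day 12 (log2 difference -0.61 ± 0.040, edgeR adjusted p = 1.26e-14). Fads1, the delta-5 desaturase (ENSMUSG00000010663, GRCm38 chromosome 19, 10182888 to 10196877), had 495, 535 and 533 CPM at day 6 and 310.2, 312 and 300.0 CPM at day 12 (log2 difference -0.76 ± 0.043, edgeR adjusted p = 1.77e-16). Its neighbour Fads2 (from 232 ± 3.89 to 163 ± 3.62 CPM, edgeR adjusted p = 5.98e-11) and fatty acid synthase, Fasn (from 323 ± 21.4 to 229 ± 7.37 CPM, edgeR adjusted p = 1.88e-10), moved the same way. The elongase Elovl5 was the 1 gene that rose (log2 difference 0.30 ± 0.055, edgeR adjusted p = 6.09e-05), with an adjusted p of 0.0558 in the limma fit of log2(TPM + 1). In the list for fatty acid oxidation and peroxisomes, 15 of 68 tested members were lower, 8 higher and 45 did not pass, with a median of -0.01 (12 and 4 with limma on TPM, and 5 higher without day 6 replicate C). Those counts are 22.1% lower and 11.8% higher, against 14.5% and 13.4% of all tested genes. The acyl-CoA synthetases Acsl4 (from 504 ± 13.3 to 321 ± 20.2 CPM, edgeR adjusted p = 4.26e-14) and Acsl3 (from 243 ± 3.21 to 162 ± 1.91 CPM, edgeR adjusted p = 8.29e-13) fell. So did Cpt1a, which carries fatty acids into mitochondria (log2 difference -0.60 ± 0.052, edgeR adjusted p = 2.27e-11), and the lipid droplet protein Plin2 (log2 difference -0.49 ± 0.045, edgeR adjusted p = 7.15e-11).

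Immediate early genes, which answer growth factor signals within minutes, were mostly lower at day 12 where they passed. Of 54 tested, 24 were lower, 9 higher and 21 did not pass, with a median log2 difference of -0.22 (21 and 5 with limma on TPM). Their differences ran from -1.67 (Egr3) to 2.06 (Id4). Dusp5, a nuclear phosphatase that inactivates ERK (ENSMUSG00000034765, GRCm38 chromosome 19, 53529109 to 53542431), had 16.6, 26.0 and 15.3 CPM at day 6 and 8.39, 7.39 and 6.68 CPM at day 12. Replicate B stood above the other day 6 libraries, but the groups did not overlap (log2 difference -1.37 ± 0.18, edgeR adjusted p = 1.77e-05). Egr2, a zinc finger factor named after its values were seen, had 7.38, 9.84 and 8.30 CPM at day 6 and 4.66, 3.25 and 3.39 CPM at day 12 (log2 difference -1.18 ± 0.20, edgeR adjusted p = 1.43e-05). Spry1, a feedback inhibitor of receptor tyrosine kinases, had 84.6, 82.3 and 96.3 CPM at day 6 and 48.5, 46.7 and 47.9 CPM at day 12 (log2 difference -0.87 ± 0.068, edgeR adjusted p = 8.77e-13). Ier2 went from 60.1 ± 3.69 to 31.3 ± 3.05 CPM (edgeR adjusted p = 8.69e-12) and Hes1, a Notch-responsive repressor, from 39.1 ± 1.61 to 19.4 ± 1.49 CPM (edgeR adjusted p = 3.69e-11). Members of this list that rose were Fosl2, Jun, Atf3, Myc, Klf4 and all 4 ID genes. Of these, Fosl2, Jun, Atf3, Myc and Klf4 are named after their values were seen. The ID genes code for inhibitors of helix-loop-helix factors and answer BMP signals. Id3 (ENSMUSG00000007872, GRCm38 chromosome 4, 136143497 to 136145755) had 90.4, 85.6 and 78.1 CPM at day 6 and 189, 204 and 193 CPM at day 12 (log2 difference 1.20 ± 0.055, edgeR adjusted p = 3.17e-19). Id1 had 175, 152 and 153 CPM at day 6 and 259, 289 and 295 CPM at day 12 (log2 difference 0.81 ± 0.057, edgeR adjusted p = 2.1e-11). Levels of both were higher than in control libraries, 15.8 to 19.1 CPM for Id3 and 39.0 to 52.4 CPM for Id1.

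Genes of growth factor reception were also mostly lower where they passed. In the list of the IGF and EGF receptor axis, 17 of 35 tested members were lower, 4 higher and 14 did not pass, with a median of -0.19 (11 lower and 4 higher with limma on TPM). Met, the receptor of hepatocyte growth factor (ENSMUSG00000009376, GRCm38 chromosome 6, 17463800 to 17573980), had 209, 213 and 204 CPM at day 6 and 132, 112 and 132 CPM at day 12 (log2 difference -0.73 ± 0.055, edgeR adjusted p = 5.38e-13). Erbb4, a neuregulin receptor, had 34.3, 42.8 and 41.9 CPM at day 6 and 18.6, 19.5 and 20.9 CPM at day 12 (log2 difference -1.004 ± 0.10, edgeR adjusted p = 1.53e-10). The insulin receptor substrate Irs1 went from 81.0 ± 4.03 to 48.5 ± 4.50 CPM (edgeR adjusted p = 1.12e-10) and Errfi1, an inhibitor of EGF receptors, from 399 ± 16.9 to 269 ± 3.39 CPM (edgeR adjusted p = 6.83e-13). The ligand neuregulin, Nrg1, rose from 8.06 ± 0.446 to 16.1 ± 1.59 CPM (edgeR adjusted p = 6.11e-07), and the IGF-binding protein Igfbp4 from 67.2 ± 7.81 to 90.1 ± 2.16 CPM (edgeR adjusted p = 9.13e-06). YAP/TEAD targets had 16 of 38 tested members lower, 5 higher and 17 that did not pass, with a median of -0.14. The matricellular gene Ccn1 went from 253 ± 10.8 to 174 ± 7.31 CPM (edgeR adjusted p = 3.2e-11) and Amot, a scaffold that binds YAP, from 219 ± 3.22 to 134 ± 9.23 CPM (edgeR adjusted p = 1.14e-13). Tgm2, a protein cross-linking enzyme in that list, rose from 565 ± 22.9 to 838 ± 27.1 CPM (edgeR adjusted p = 2.72e-13). The TGF-beta, activin and BMP list was split, with 18 of 48 tested members higher, 14 lower and 16 that did not pass, and a median of 0.04 (10 and 8 with limma on TPM).

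**Figure D3:**
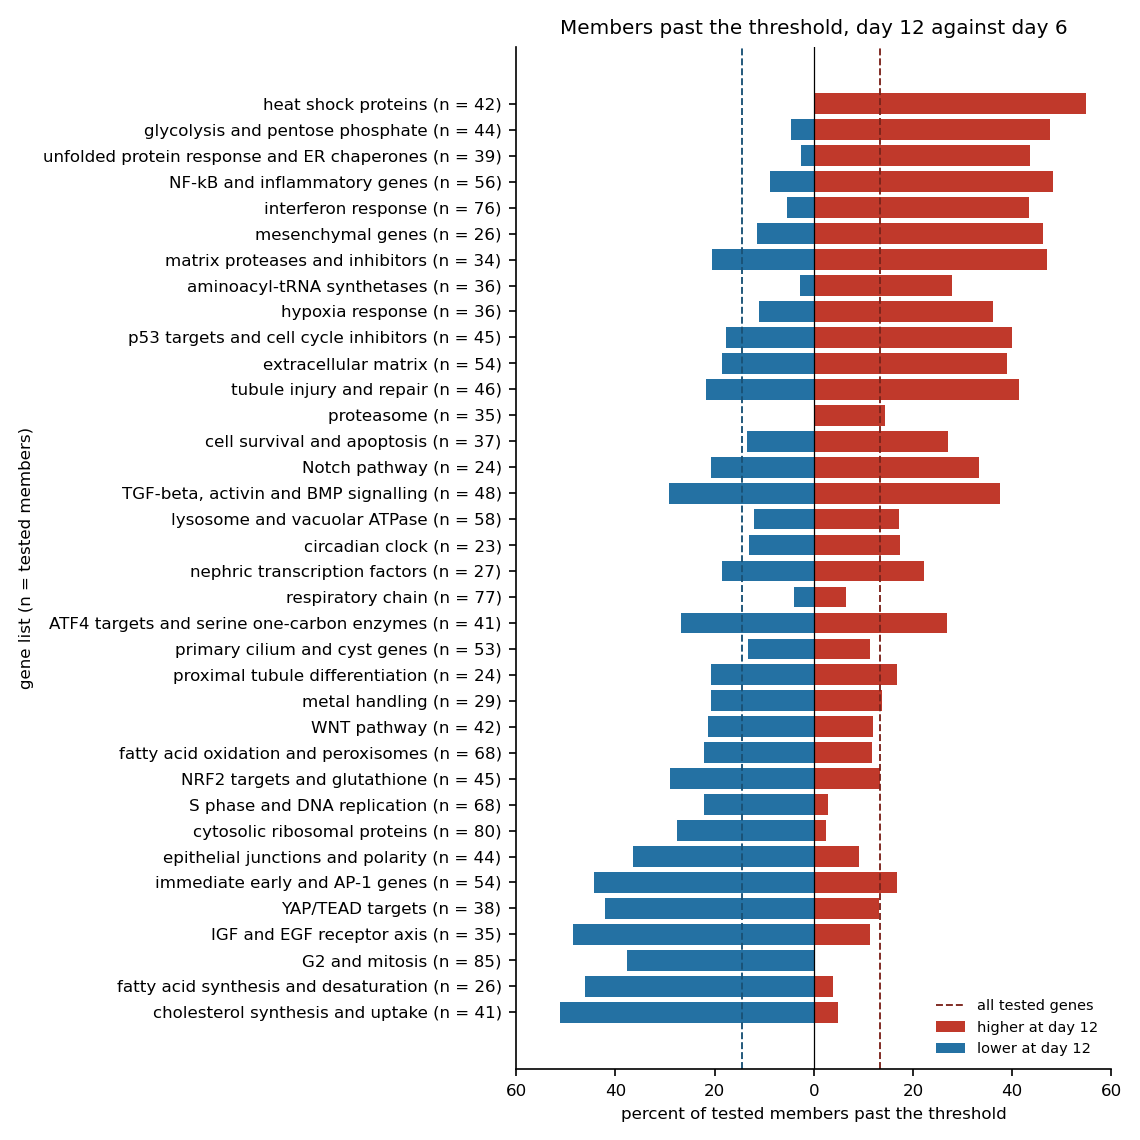
Percent of the tested members of each gene list that were higher (red, to the right) or lower (blue, to the left) at day 12 past the edgeR threshold, with n tested members in brackets. The dashed lines mark all tested genes, 13.4% higher and 14.5% lower: heat shock, glycolytic and inflammatory genes extend to the right and sterol, receptor axis and mitotic genes to the left.

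Few tubule genes could be tested, and the shares that passed were near those of all tested genes. Of 63 genes of proximal tubule differentiation, 39 lay below the filter on low counts. Among the 24 tested, 5 were lower (20.8%, against 14.5% of all tested genes), 4 higher (16.7%, against 13.4%) and 15 did not pass, with a median log2 difference of -0.25 (4 lower and 2 higher with limma on TPM, 3 lower without day 6 replicate B). That median lay below the 0.0028 of all tested genes, and at an unadjusted edgeR p under 0.05, 12 were lower and 4 higher. The summed level of the list was 2686 to 2979 CPM at day 6 and 1918 to 2193 CPM at day 12, without overlap. Much of that sum was Aqp1 (mean 1047 CPM at day 6 and 658 at day 12) and Gpx3 (864 and 642). It thus says little of the other members. Lrp2, the endocytic receptor megalin (ENSMUSG00000027070, GRCm38 chromosome 2, 69424340 to 69586065), had 215, 229 and 247 CPM at day 6 and 97.6, 92.4 and 97.4 CPM at day 12. All day 12 libraries were below all day 6 libraries (log2 difference -1.26 ± 0.054, edgeR adjusted p = 5.68e-20). The earlier groups had 249.1 to 283 CPM (control) and 100.3 to 119.8 CPM (day 2), so the level of Lrp2 was not monotonic over time. Cdh16, the kidney cadherin (ENSMUSG00000031881, GRCm38 chromosome 8, 104601911 to 104624396), had 81.6, 78.4 and 82.2 CPM at day 6 and 41.7, 34.4 and 37.6 CPM at day 12 (log2 difference -1.09 ± 0.071, edgeR adjusted p = 1.09e-14), after 1062 to 1163 CPM in control libraries. The plasma glutathione peroxidase Gpx3 went from 864 ± 22.9 to 642 ± 33.5 CPM (edgeR adjusted p = 3.84e-10). Gpx3 had 149 to 174 CPM in control and 419 to 484 CPM in day 2 libraries, so it was still above control at day 12. Alkaline phosphatase, Alpl, a brush border enzyme, rose from 56.8 ± 5.02 to 96.5 ± 6.86 CPM (edgeR adjusted p = 3.2e-11). The water channel Aqp1, named after its values were seen, had 1169, 896 and 1076 CPM at day 6 and 740.5, 544 and 689.7 CPM at day 12. Its groups did not overlap, but its spread between replicates was wide and it did not pass (log2 difference -0.67 ± 0.17, edgeR adjusted p = 0.0535). Aqp1 did pass with DESeq2 (adjusted p = 8.88e-04). It had 169 to 176 CPM in control and 537 to 578 CPM in day 2 libraries, so its level was above control on both days compared.

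Junction and polarity genes were lower more often than higher: of 44 tested, 16 were lower, 4 higher and 24 did not pass, with a median of -0.15. With limma on TPM 11 were lower and 1 higher, and 2 were higher without day 6 replicate A or day 12 replicate C. Cldn2, the claudin of leaky tubule junctions (ENSMUSG00000047230, GRCm38 chromosome X, 139800828 to 139811386), had 66.3, 81.4 and 67.2 CPM at day 6 and 39.5, 38.1 and 40.6 CPM at day 12 (log2 difference -0.86 ± 0.077, edgeR adjusted p = 3.57e-11). Dsp, the desmosomal protein desmoplakin, had 55.0, 59.2 and 53.3 CPM at day 6 and 34.8, 29.6 and 34.6 CPM at day 12 (log2 difference -0.76 ± 0.078, edgeR adjusted p = 1.04e-09). The polarity protein gene Pard6b went from 125 ± 5.73 to 86.4 ± 6.37 CPM (edgeR adjusted p = 4.84e-09). Cldn1, a sealing claudin, rose from 5.95 ± 0.541 to 9.43 ± 0.828 CPM (edgeR adjusted p = 0.00222) and the desmosomal plakophilin Pkp2 from 46.6 ± 1.70 to 55.7 ± 2.44 CPM (edgeR adjusted p = 0.00547). Neither Cldn1 nor Pkp2 passed in the limma fit of log2(TPM + 1) (adjusted p = 0.0511 and 0.119). Genes of tubule injury and repair were more often higher, with 19 of 46 tested higher, 10 lower and 17 that did not pass, and a median of 0.11 (13 and 6 with limma on TPM).

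Targets of p53 and inhibitors of the cell cycle had 18 of 45 tested members higher, 8 lower and 19 that did not pass, with a median of 0.14 (8 lower became 5 without day 6 replicate C). Ccng1, the p53-induced cyclin G1 (ENSMUSG00000020326, GRCm38 chromosome 11, 40748552 to 40755311), had 49.8, 56.5 and 53.3 CPM at day 6 and 139, 165 and 154 CPM at day 12. All day 12 libraries were more than 2-fold above all day 6 libraries (log2 difference 1.52 ± 0.064, edgeR adjusted p = 9.29e-20), and the earlier groups ranged over 43.6 to 56.9 (control) and 55.0 to 59.8 CPM (day 2), near the day 6 level. Fas, a death receptor (ENSMUSG00000024778, GRCm38 chromosome 19, 34290666 to 34327772), had 3.99, 3.87 and 4.15 CPM at day 6 and 15.7, 18.9 and 16.1 CPM at day 12 (log2 difference 2.08 ± 0.16, edgeR adjusted p = 4.72e-13). Cdkn1a, the gene of the kinase inhibitor p21 (ENSMUSG00000023067, GRCm38 chromosome 17, 29090976 to 29100727), had 63.1, 71.2 and 59.5 CPM at day 6 and 102, 127 and 118 CPM at day 12 (log2 difference 0.84 ± 0.075, edgeR adjusted p = 7.61e-09), and stood higher in control libraries, at 181 to 214 CPM. The polo-like kinase Plk2 rose from 21.9 ± 1.38 to 47.2 ± 4.34 CPM (edgeR adjusted p = 1.18e-12), while Plk3 fell from 7.54 ± 1.56 to 4.07 ± 0.229 CPM (edgeR adjusted p = 0.000942). The antiproliferative gene Btg2 fell from 61.7 ± 3.55 to 48.5 ± 3.10 CPM (edgeR adjusted p = 0.000263). Among cell survival genes, 10 of 37 tested were higher, 5 lower and 22 did not pass, with a median of 0.06. Their shares were 27.0% higher and 13.5% lower, against 13.4% and 14.5% of all tested genes. With limma on TPM 7 were higher and 3 lower, and the median was -0.01. Pmaip1, the BH3-only protein NOXA, rose from 7.52 ± 0.575 to 14.5 ± 0.469 CPM (edgeR adjusted p = 2.13e-06) and the caspase Casp12 from 4.07 ± 0.578 to 9.79 ± 0.345 CPM (edgeR adjusted p = 6.35e-07). The survival gene Bcl2l1 rose as well, from 150.3 ± 3.22 to 183 ± 0.1096 CPM (edgeR adjusted p = 1.63e-05).

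Interferon response genes had 33 of 76 tested members higher (43.4%), 4 lower and 39 that did not pass, with a median log2 difference of 0.23 (14 higher and 1 lower with limma on TPM). The largest rises were in the p200 family of DNA-sensing proteins, whose members are near copies of each other, so their single values are uncertain. Ifi203 (ENSMUSG00000039997, GRCm38 chromosome 1, 173920407 to 173942672) had 9.87, 9.95 and 4.95 CPM at day 6 and 46.7, 48.6 and 45.1 CPM at day 12, with replicate C lowest at day 6 (log2 difference 2.46 ± 0.14, edgeR adjusted p = 1.66e-10). Ifi205 had 2.89, 5.64 and 3.35 CPM at day 6 and 23.9, 20.6 and 20.4 CPM at day 12 (log2 difference 2.44 ± 0.17, edgeR adjusted p = 2.72e-13). Mndal (log2 difference 2.21 ± 0.21, edgeR adjusted p = 2.58e-10) and Ifi204 (log2 difference 0.77 ± 0.068, edgeR adjusted p = 2.39e-11) rose too. The signal transducer Stat2 went the other way, from 34.3 ± 2.00 to 24.1 ± 1.118 CPM (edgeR adjusted p = 2.61e-05), as did the RNA-editing enzyme Adar, from 74.8 ± 2.06 to 61.8 ± 4.17 CPM (edgeR adjusted p = 0.00124, limma on log2(TPM + 1) adjusted p = 0.0748). Members that fell numbered 2, not 4, with DESeq2, without day 6 replicate C and without day 12 replicate B.

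NF-kB and inflammatory genes had 27 of 56 tested members higher (48.2%), 5 lower and 24 that did not pass, with a median of 0.32 (17 and 2 with limma on TPM). C3, the central complement protein (ENSMUSG00000024164, GRCm38 chromosome 17, 57203970 to 57228136), had 583, 551 and 519.5 CPM at day 6 and 1030, 1082 and 1125 CPM at day 12. All day 12 libraries were above all day 6 libraries, a rise close to 2-fold (log2 difference 0.97 ± 0.044, edgeR adjusted p = 3.17e-19). Control libraries had 500.1 to 592 CPM, near the day 6 level. Tnfaip3, the feedback inhibitor A20 (ENSMUSG00000019850, GRCm38 chromosome 10, 19000910 to 19015657), had 67.1, 62.8 and 62.0 CPM at day 6 and 113, 116 and 112 CPM at day 12 (log2 difference 0.82 ± 0.059, edgeR adjusted p = 1.15e-13). Nfkbia, which holds NF-kB in the cytoplasm and is itself a target, had 53.2, 52.6 and 46.2 CPM at day 6 and 94.0, 95.4 and 93.1 CPM at day 12 (log2 difference 0.89 ± 0.065, edgeR adjusted p = 1.88e-13). Lcn2, the injury marker NGAL, had 59.2, 58.8 and 60.5 CPM at day 6 and 101, 102 and 99.5 CPM at day 12 (log2 difference 0.76 ± 0.060, edgeR adjusted p = 1.05e-12). Replicates of these 3 genes lay close together in both groups. The cytokine Csf1 fell slightly, from 255 ± 10.9 to 219 ± 1.71 CPM (edgeR adjusted p = 0.000401, limma on log2(TPM + 1) adjusted p = 0.0526), and the chemokine Cxcl5 from 65.8 ± 1.38 to 52.0 ± 6.401 CPM (edgeR adjusted p = 0.000508). Of 24 leukocyte markers, 11 were at 0 in all 6 libraries, Ptprc among them, and 4 could be tested, of which Cd68 and Cd14 were higher and Csf1r lower at day 12. The summed level of the 24 was 35.07 to 37.3 CPM at day 6 and 33.5 to 34.83 CPM at day 12. That sum holds Csf1r, which fell, as well as the markers that rose. The part of these markers in the inflammatory genes was not tested.

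**Figure D4:**
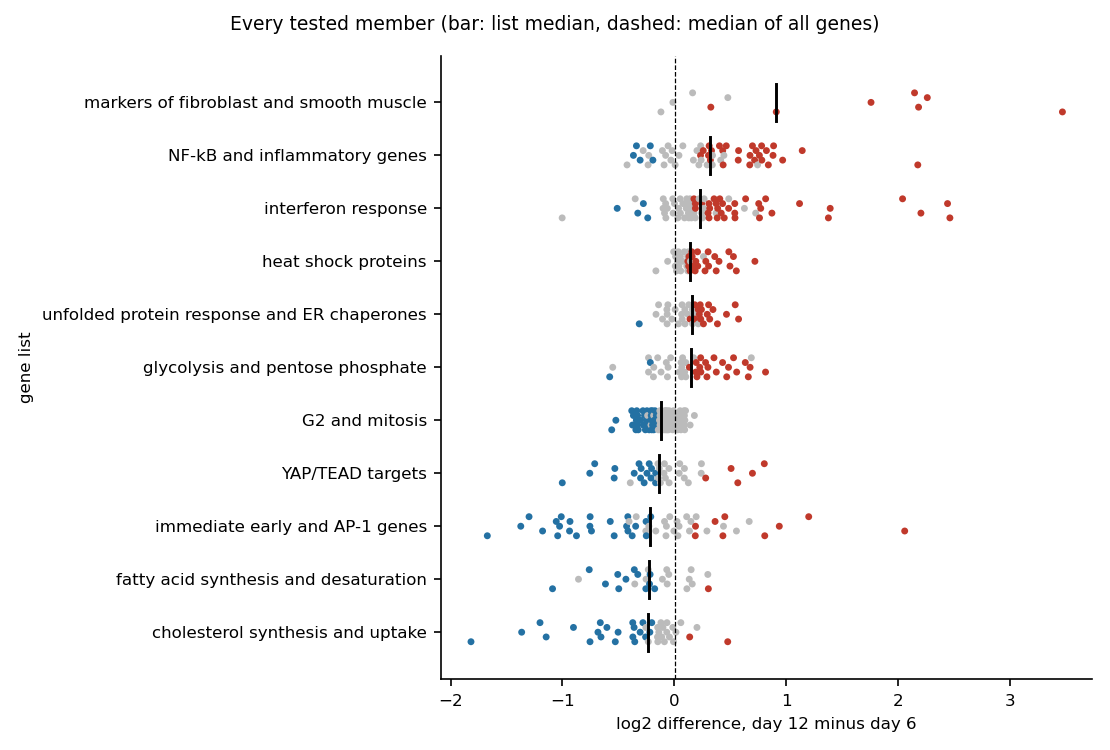
Log2 difference between day 12 and day 6 for every tested member of 11 gene lists, 1 point per gene (red higher and blue lower past the edgeR threshold, grey not past it). The black bar is the list's median and the dashed line the median of all tested genes, 0.0028: medians run from -0.23 for the sterol list to 0.91 for fibroblast and smooth muscle markers.

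Glycolysis and pentose phosphate genes had 21 of 44 tested members higher, 2 lower and 21 that did not pass, with a median of 0.15 (11 and 2 with limma on TPM, and 4 lower without day 6 replicate B). Ldha, lactate dehydrogenase A (ENSMUSG00000063229, GRCm38 chromosome 7, 46841475 to 46855627), had 387, 381 and 357 CPM at day 6 and 560.2, 624 and 615 CPM at day 12. The groups did not overlap (log2 difference 0.68 ± 0.045, edgeR adjusted p = 1.61e-14), and both lay below the control libraries, which had 951 to 1168 CPM. Aldoa, aldolase A, went from 452 ± 28.0 to 653 ± 42.1 CPM (edgeR adjusted p = 4.39e-10). Triose phosphate isomerase, Tpi1 (log2 difference 0.43 ± 0.045), and phosphoglycerate mutase, Pgam1 (0.35 ± 0.042), rose by less. The neuronal enolase Eno2 fell from 38.4 ± 3.30 to 25.6 ± 1.45 CPM (edgeR adjusted p = 2.66e-06), and transketolase, Tkt, from 223 ± 14.6 to 192 ± 5.36 CPM (edgeR adjusted p = 0.000924, limma on log2(TPM + 1) adjusted p = 0.0604). Hypoxia response genes had 13 of 36 tested members higher, 4 lower and 19 that did not pass, with a median of 0.13 (8 and 4 with limma on TPM). Bnip3, which marks mitochondria for removal, had 60.3, 58.1 and 49.8 CPM at day 6 and 115, 116 and 106 CPM at day 12 (log2 difference 1.00 ± 0.066, edgeR adjusted p = 1.26e-14). Hif1a, the oxygen-regulated transcription factor, had 334, 339 and 286 CPM at day 6 and 553, 571 and 538 CPM at day 12 (log2 difference 0.79 ± 0.051, edgeR adjusted p = 1.49e-12). The collagen prolyl hydroxylases P4ha1 (from 67.7 ± 4.58 to 103 ± 5.27 CPM, edgeR adjusted p = 1.13e-09) and P4ha2 (from 57.4 ± 4.00 to 87.7 ± 7.50 CPM, edgeR adjusted p = 6.7e-09) rose alike. Control libraries were above both groups for Bnip3 (163 to 170 CPM), P4ha1 (245 to 264) and P4ha2 (134 to 145). For Hif1a they were below both (169.6 to 178 CPM). Nuclear-encoded respiratory chain genes mostly did not pass: 69 of 77 tested, with 5 higher and 3 lower (2 higher and 1 lower with DESeq2, 2 higher and 0 lower without day 6 replicate B; 0 higher and 1 lower with limma on TPM) and a median of 0.02.

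Chaperones of the endoplasmic reticulum and the cytosol were mostly higher where they passed. Of 39 tested genes of the unfolded protein response and ER chaperones, 17 were higher, 1 lower and 21 did not pass, with a median of 0.16 (6 and 2 with limma on TPM). Hspa5, the ER chaperone BiP (ENSMUSG00000026864, GRCm38 chromosome 2, 34771970 to 34777547), had 424, 418 and 418 CPM at day 6 and 609, 635 and 632 CPM at day 12. Replicates were tight and the groups well apart (log2 difference 0.57 ± 0.041, edgeR adjusted p = 9.02e-14). Calr, the ER lectin calreticulin, had 533, 506 and 504 CPM at day 6 and 711, 767 and 774 CPM at day 12 (log2 difference 0.55 ± 0.043, edgeR adjusted p = 1.05e-12). Hsp90b1 (log2 difference 0.35 ± 0.040) and the disulfide isomerase Pdia3 (0.26 ± 0.040) rose by less, and the member that fell was the regulator Crebrf (log2 difference -0.31 ± 0.052, edgeR adjusted p = 1.2e-05, limma on log2(TPM + 1) adjusted p = 0.173). Of 42 tested heat shock genes, 23 were higher (54.8%), 0 lower and 19 did not pass, with a median of 0.14. DESeq2 gave 21 higher and 0 lower, and limma on TPM 9 and 0. At an unadjusted edgeR p under 0.05, 1 member was lower, and 1 passed as lower without day 12 replicate C. Hsp90aa1, the inducible cytosolic HSP90 (ENSMUSG00000021270, GRCm38 chromosome 12, 110690605 to 110702728), had 835, 810.5 and 768 CPM at day 6 and 1161, 1141 and 1182 CPM at day 12 (log2 difference 0.53 ± 0.041, edgeR adjusted p = 8.77e-13). Hspa8, the constitutive HSP70, went from 1500 ± 12.0 to 1850 ± 57.6 CPM (edgeR adjusted p = 1.94e-07, limma on log2(TPM + 1) adjusted p = 0.0586). Among small heat shock proteins, Hspb8 went from 15.9 ± 1.58 to 26.2 ± 1.09 CPM (edgeR adjusted p = 1.69e-06) and Hspb1 from 83.5 ± 1.79 to 117 ± 5.15 CPM (edgeR adjusted p = 1.28e-08). Control libraries were above both groups for Calr (903 to 1014 CPM), Hsp90aa1 (1238 to 1383) and Hspa8 (2233 to 2328). For Hspb8 they were near the day 6 level (14.4 to 17.0 CPM), and for Hspb1 below both groups (55.2 to 69.2 CPM). Aminoacyl-tRNA synthetases had 10 of 36 tested members higher, 1 lower and 25 that did not pass, with a median of 0.09 (4 and 1 with limma on TPM).

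Mitotic genes that passed were lower, by small amounts. Of 85 tested genes of G2 and mitosis, 32 were lower (37.6%), 0 higher and 53 did not pass, with a median of -0.11 (25 lower and 0 higher with DESeq2, 21 and 0 with limma on TPM). At an unadjusted edgeR p under 0.05, 1 was higher, and 2 passed as higher without day 12 replicate A. Cenpa, the centromeric histone H3 variant, had 93.2, 90.1 and 88.0 CPM at day 6 and 62.3, 62.8 and 63.9 CPM at day 12 (log2 difference -0.52 ± 0.060, edgeR adjusted p = 1.31e-08). Ncapd2, a condensin subunit, had 390.4, 394 and 406 CPM at day 6 and 299, 318 and 302 CPM at day 12 (log2 difference -0.37 ± 0.043, edgeR adjusted p = 1.15e-08). The spindle proteins Tacc3 (log2 difference -0.38 ± 0.053) and Troap (-0.56 ± 0.079) fell alike. S phase genes had 15 of 68 tested members lower, 2 higher and 51 that did not pass, with a median of -0.09 (7 lower and 0 higher with limma on TPM). Pole, the catalytic subunit of leading-strand DNA polymerase, went from 167 ± 13.3 to 129 ± 6.28 CPM (edgeR adjusted p = 1.79e-06), whereas Pola1, of the primase complex, rose from 123 ± 4.07 to 141 ± 2.76 CPM (edgeR adjusted p = 0.0036, limma on log2(TPM + 1) adjusted p = 0.204). Cytosolic ribosomal protein genes, many of which have processed pseudogenes that could take reads, had 22 of 80 tested members lower, 2 higher and 56 that did not pass, with a median of -0.09. That count was 7 lower in the fit of all 12 libraries and 13 without day 6 replicate B. With limma on TPM it was 13 lower and 1 higher. Rps27 went from 268 ± 6.15 to 222 ± 4.97 CPM (edgeR adjusted p = 9.36e-06) and its paralog Rps27l, a p53 target, from 48.9 ± 4.52 to 62.0 ± 2.44 CPM (edgeR adjusted p = 0.000426).

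Set beside the earlier libraries, which entered no test here, the drift took several forms. Acta2, Myl9, Actg2, Fhl1 and Id3 were at their highest at day 12 among the 4 groups, and Insig1, Srebf2, Scd2, Fads1 and Cdh16 at their lowest. Dusp5 was highest at day 6. Ccng1 stayed within 43.6 to 59.8 CPM in the 9 libraries before day 12. Ldha and Hspa5 were lowest at day 6 and higher at day 12, where no library of either reached its control range. The comparisons of day 6 and of day 12 with control would share the control libraries, so no likeness between them is given.

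**Figure D5:**
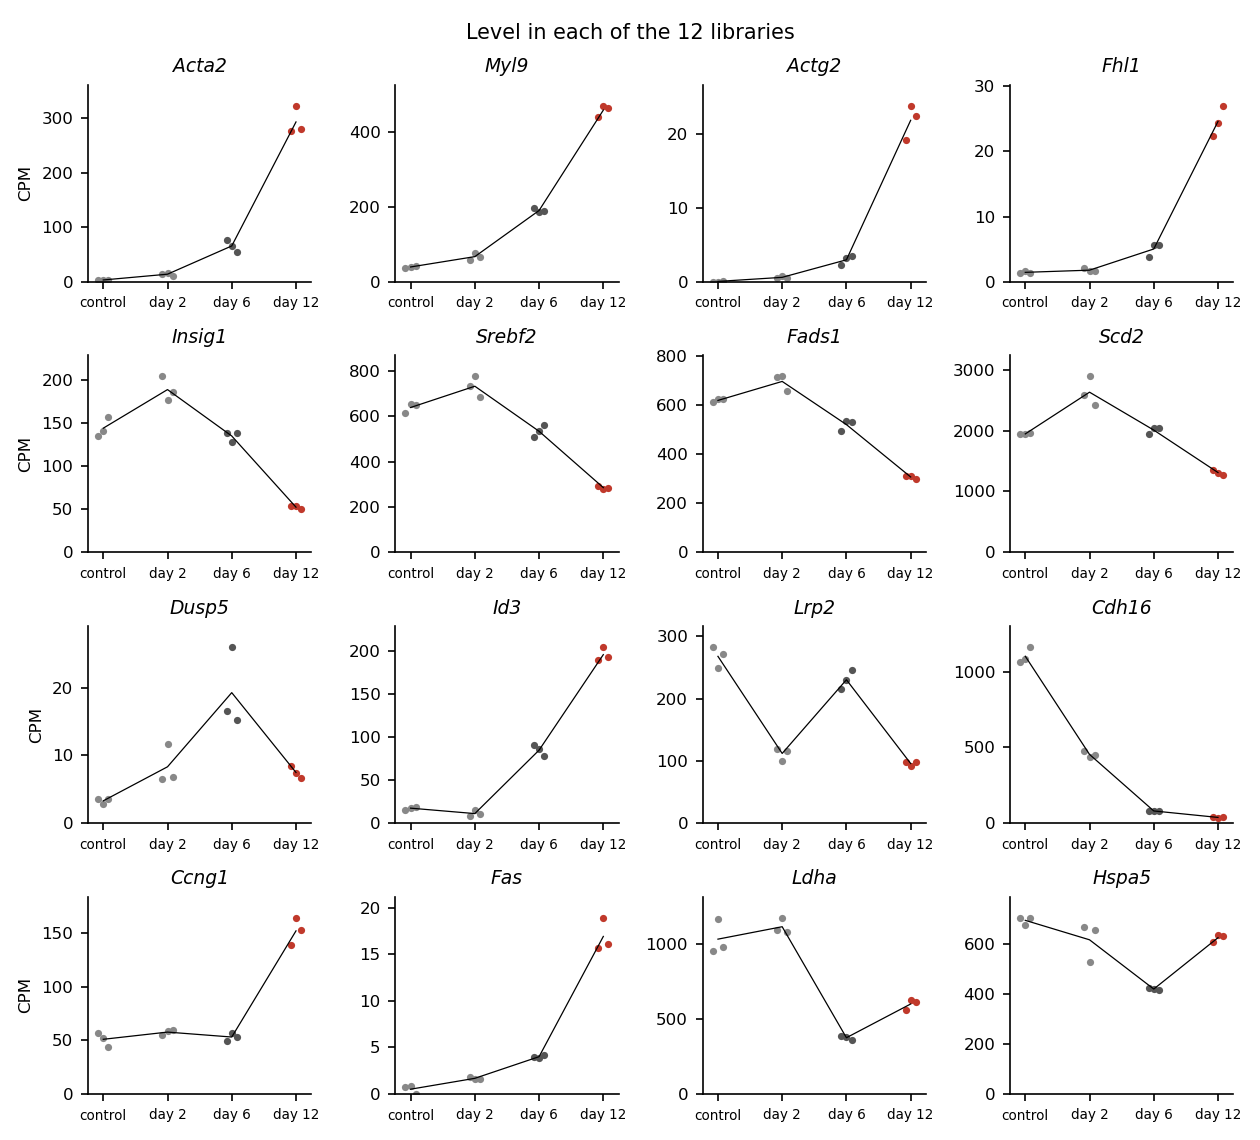
CPM of 16 named genes in each of the 12 libraries, by group (control, day 2, day 6, day 12; linear axes from 0, 1 point per library, line through group means). Day 12 libraries are red: the top row rises steeply after day 6, the second row falls, and Lrp2 dips at day 2 and again at day 12.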

How the data were processed

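PolyA RNA of 12 libraries was sequenced, and 6 of them (day 6 and day 12, 3 each) were compared. The authors deposited gene-level expected counts and TPM per library, estimated with RSEM 1.3.3 and STAR 2.7.8a on GRCm38 after cutadapt 2.3 and FastQC 0.11.8, per the submitters' processing notes. The annotation release, strand setting and filters are not given in the sources used here. Without known strand use, reads of overlapping antisense genes cannot be told apart. RSEM shares reads among near-identical copies, so such genes are named as uncertain.

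Expected counts were rounded. Of 55491 genes, 13005 passed the group-wise filterByExpr of edgeR 4.0.16 (R 4.3.3), whose test was then applied (TMM, robust quasi-likelihood fit, two-sided, Benjamini-Hochberg over all 13005, threshold 0.05). Log2 CPM used a prior count of 2. Deposited TPM values were tested with limma 3.58.1 on log2(TPM + 1), with TPM + 0.1 as another pseudocount, which understates changes of low genes. Other alternatives were DESeq2 1.42.0, RLE and upper-quartile scaling, other filters, a fit of all 12 libraries, a replicate block and leaving out each library. The fits were tested on simulated data.

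The text names Pax8 and Pax2, the 12 largest rises and falls among genes that passed with a mean of at least 5 CPM and no overlap, the 6 largest rises and falls in CPM, and for each list up to 4 members with the smallest p plus up to 2 in the other direction. Predicted genes, histones and mitochondrial genes were left out of the first 2 choices. Members and lists were chosen with earlier results of these data known. Coordinates are GENCODE M21's (GRCm38), which held 12994 of the 13005 tested IDs; 4 genes in the tables have no Ensembl ID. Promoters are RefSeq's (GRCm38.p6). Some genes that the rule names are not reported here.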

Additional observations from a re-analysis of the deposited data

How the results depend on the processing

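No called log2 difference changed sign under any alternative run among the named genes that were followed there. Col4a3, Col4a4, Col4a5, Col4a6, Egr3, Id4, Cd14, Fosl2, Jun, Atf3, Myc and Klf4 were not followed. Of the genes named under other observations below, only Slc40a1, Csf1r and Cd68 were. In the edgeR fit 1744 genes were higher and 1889 lower. With limma on log2(TPM + 1), 579 were higher and 1039 lower (1618 in all), and with TPM + 0.1, 578 and 1038 (1616). At least 2-fold differences numbered 191 higher and 88 lower in the edgeR fit, 72 and 42 with limma on log2(TPM + 1), and 64 and 31 among genes with a mean of at least 5 CPM, where fewer genes were tested. The cause of the limma counts was not tested. Leaving out 1 library at a time gave 2822 to 3348 genes in all, 1329 to 1562 higher and 1480 to 1789 lower, with 186 to 199 at least 2-fold higher and 70 to 101 at least 2-fold lower. DESeq2 gave 2612 genes in all. Upper-quartile scaling gave 3686 and turned the balance of calls, to 2024 higher and 1662 lower (54.9% higher against 48.0%). It turned that of the cilium list too, from 6 higher and 7 lower to 9 and 7. Of the alternative values of the genes followed, 2012 stayed on their side of the threshold, 34 lost the call and 6 gained it (all Aqp1). Deviations of libraries with the same replicate letter correlated at 0.018 (A), 0.049 (B) and -0.007 (C) over the tested genes. The letters thus showed no pairing across genes as a whole. A correlation over all genes cannot show whether single genes, such as Aqp1, were paired. With the replicate block 3637 genes passed, 3544 of them shared with the fit without it, 8 proximal tubule genes were lower in place of 5, and Aqp1 passed (edgeR adjusted p = 6.01e-13). Libraries of 7482293 to 10027484 counts limit what can be said of genes below about 1 CPM, among them Hnf4a, Postn and Myh11 at day 6.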

Other observations

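Other gene groups moved little or in both directions, beside 13.4% higher and 14.5% lower over all tested genes. NRF2 targets and glutathione genes had 13 of 45 tested members lower, 6 higher and 26 that did not pass, with a median log2 difference of -0.03. Lower members numbered 7 without day 6 replicate C and 8 without day 12 replicate B. With limma on TPM 7 were lower and 2 higher. Osgin1, an oxidative stress gene, went from 65.0 ± 5.33 to 43.2 ± 1.86 CPM (edgeR adjusted p = 6.72e-08), and glutathione peroxidase 1, Gpx1, from 80.6 ± 6.46 to 109.8 ± 6.96 CPM (edgeR adjusted p = 8.22e-07). ATF4 targets and serine and one-carbon enzymes were split evenly with edgeR, with 11 of 41 higher and 11 lower, but limma on TPM gave 4 and 8. Mthfd2, a mitochondrial folate enzyme, rose from 38.4 ± 4.05 to 61.5 ± 2.26 CPM (edgeR adjusted p = 7.85e-09), and the amino acid transporter Slc38a2 fell from 764 ± 31.2 to 590.1 ± 34.9 CPM (edgeR adjusted p = 2.18e-08). Among 58 lysosomal genes, 10 were higher (17.2%) and 7 lower (12.1%), and limma on TPM gave 4 and 7. The protease cathepsin B, Ctsb, rose from 548 ± 12.3 to 686 ± 24.6 CPM (edgeR adjusted p = 9.47e-08) and the lysosomal channel Mcoln1 fell from 92.9 ± 7.69 to 65.9 ± 2.78 CPM (edgeR adjusted p = 1.96e-07).

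The metal list had 6 of 29 members lower and 4 higher (2 higher without day 12 replicate B and with limma on TPM). In it the iron exporter ferroportin, Slc40a1, had 125, 146 and 135 CPM at day 6 and 74.0, 66.8 and 61.5 CPM at day 12, without overlap (log2 difference -1.01 ± 0.066, edgeR adjusted p = 2.72e-13). The zinc transporter Slc30a4 rose from 90.3 ± 9.44 to 144 ± 3.11 CPM (edgeR adjusted p = 4.1e-11). WNT genes had 9 of 42 lower and 5 higher (3 higher without day 6 replicate A or C, 6 lower and 2 higher with limma on TPM). The cytoplasmic transducer Dvl1 fell from 87.9 ± 9.12 to 64.8 ± 1.95 CPM (edgeR adjusted p = 3.84e-06) and the ligand Wnt11 rose from 0.906 ± 0.381 to 3.47 ± 1.25 CPM (edgeR adjusted p = 0.000113). Notch genes had 8 of 24 higher and 5 lower (3 lower without day 12 replicate C, 1 higher and 3 lower with limma on TPM). The ligand Jag2 rose from 42.3 ± 0.566 to 55.5 ± 4.38 CPM (edgeR adjusted p = 8.34e-05). Circadian genes had 4 of 23 higher (17.4%) and 3 lower (13.0%). Of these, 2 were higher without day 6 replicate A, 6 lower without day 12 replicate A, and 0 higher and 2 lower with limma on TPM. Cilium and cyst genes had 7 of 53 lower (13.2%) and 6 higher (11.3%), and 5 lower and 0 higher with limma on TPM. Higher members numbered 1 without day 6 replicate C, and 2 without day 6 replicate A, day 12 replicate B or day 12 replicate C. The RNA-binding cyst gene Bicc1 fell from 859.8 ± 15.8 to 689.6 ± 37.7 CPM (edgeR adjusted p = 2.45e-07) and the zinc finger gene Glis2 from 222 ± 16.3 to 167 ± 4.33 CPM (edgeR adjusted p = 4.74e-08). Proteasome genes had 5 of 35 higher (14.3%, near the share of all tested genes) and 0 lower with edgeR. DESeq2 gave 2 and 0, limma on TPM 0 and 0, and 2 were lower at an unadjusted edgeR p under 0.05. Without 1 of 4 libraries, namely day 6 replicate C or any at day 12, 1 to 3 were higher, and 1 was lower without day 12 replicate C. Mitochondrially encoded genes had 2 of 15 higher and 0 lower with edgeR (1 and 0 with limma on TPM), with a median of 0.25. DESeq2 gave 5 and 0, 7 were higher and 0 lower at an unadjusted edgeR p under 0.05, and the count of higher genes ranged from 1 to 8 when 1 library was left out, 8 being without day 12 replicate A, where 1 was lower.

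Markers of other nephron segments and cell types had few tested members. Loop of Henle and distal tubule markers had 3 of 7 higher and 1 lower, with summed levels of 445.7 to 463.7 CPM at day 6 and 478.7 to 496.2 CPM at day 12. Collecting duct markers had 2 of 6 higher and 1 lower (110.8 to 125.8 and 105 to 112.7 CPM), and podocyte and parietal markers 4 of 13 higher and 2 lower (1478 to 1502 and 1422 to 1445 CPM). In the podocyte list the adhesion molecule Vcam1, which is also an inflammatory gene, rose from 8.33 ± 2.44 to 18.8 ± 3.16 CPM (edgeR adjusted p = 8.86e-06). Endothelial markers had 1 of 4 higher and 1 lower (47.86 to 51.59 and 55.01 to 56.4 CPM). Of 4 leukocyte markers tested, 2 were higher and 1 lower. The receptor Csf1r had 15.9, 15.4 and 16.7 CPM at day 6 and 7.69, 7.50 and 7.81 CPM at day 12, without overlap (log2 difference -1.06 ± 0.14, edgeR adjusted p = 1.22e-07). The lysosomal glycoprotein Cd68 rose from 5.09 ± 0.211 to 8.59 ± 1.401 CPM (edgeR adjusted p = 0.00129). These small counts changed when single libraries were left out, by 1 or 2 genes. With limma on TPM no loop of Henle, collecting duct or endothelial marker passed, and leukocyte markers had 1 higher and 1 lower.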
